A study of Homo sapiens with 24 samples.

Results

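The atrial and the ventricular differentiation protocols were compared in control cells, over all genes, using 6 of the 24 bulk RNA sequencing libraries of the series. Both groups came from the human embryonic stem cell line HES3 carrying a GFP reporter at NKX2-5 and an mCherry reporter at NR2F2, and in both the gene TRAC had been targeted with CRISPR-Cas9 as the control target. TRAC encodes the constant part of the T cell receptor alpha chain. Cells were differentiated toward heart muscle as embryoid bodies with a Wnt-modulating protocol for at most 14 days. The 3 AM TRAC libraries are read here as the atrial protocol, in which retinoic acid was added at day 4, and the 3 VM TRAC libraries as the ventricular protocol, without retinoic acid. The other 18 libraries were AM and VM cells targeted at LHX2, ZNF503 or ZNF711, 3 libraries per group. The labels do not say whether the TRAC cells were 1 clone or a pool, nor whether the 3 replicates came from separate differentiations. The p-values therefore measure the spread between libraries only. That spread was estimated over all 24 libraries of the 8 groups, not from the 6 TRAC libraries alone. The label calls the cells cardiomyocytes, but each library is a whole culture, in which fewer cells of a type and less RNA per cell cannot be told apart.

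Retinoic acid is made from vitamin A by aldehyde dehydrogenases, is broken down by the CYP26 enzymes and acts through the nuclear receptors RAR and RXR. In the embryo it patterns the heart tube along its length, and in stem cell cultures it is used to direct cardiac mesoderm to an atrial fate. NR2F1 and NR2F2 (COUP-TFI and COUP-TFII) are orphan nuclear receptors of the atrial programme. IRX4 and HEY2 are transcription factors of the ventricular programme, and MYL2 and MYH7 encode the ventricular myosin regulatory light chain and the beta myosin heavy chain.

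RAR and RXR bind as a pair to direct repeats of a 6-base element. Promoters were read from RefSeq (GRCh38.p14), as the 250 bases before the gene start, and were searched on both strands for such repeats with 1, 2 or 5 bases of spacing. The element could be AGGTCA as in most textbook sites, or AGTTCA with the third letter changed, or GGGTCA with the leading letter changed, or GGTTCA with both changed, in any combination. Of 420 genes looked up, 291 had a promoter in the table, and 1 of these held such a repeat. It was in RARB, which encodes retinoic acid receptor beta, with 5 bases of spacing, 37 to 53 bases before the start. Repeats with 5 bases of spacing were in 0.0696% of all 27305 promoters. None of the 3 spacings was found in the 840 promoters of genes that rose in AM or in the 668 of genes that fell. A match is a description of the letters, and its absence from this short window says nothing of binding elsewhere. The RARB promoter is shown because its repeat is the textbook retinoic acid element (chr3:25428013-25428262, plus strand, repeat in capitals).
RARB: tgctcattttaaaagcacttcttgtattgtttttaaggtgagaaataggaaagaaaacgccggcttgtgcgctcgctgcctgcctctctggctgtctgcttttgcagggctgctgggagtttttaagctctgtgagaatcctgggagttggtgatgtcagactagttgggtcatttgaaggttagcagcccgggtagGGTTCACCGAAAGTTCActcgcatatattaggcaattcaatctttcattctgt
The promoters of AFP (chr4:73435971-73436220, plus strand) and ALB (chr4:73404037-73404286, plus strand) are shown because these liver secretory genes were among the largest falls. Capitals mark GTTAAT, part of the site of the hepatic factor HNF1.
AFP: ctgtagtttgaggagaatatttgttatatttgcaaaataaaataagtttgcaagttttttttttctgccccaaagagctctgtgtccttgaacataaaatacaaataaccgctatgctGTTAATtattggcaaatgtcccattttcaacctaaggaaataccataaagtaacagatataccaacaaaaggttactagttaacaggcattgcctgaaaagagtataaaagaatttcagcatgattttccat
ALB: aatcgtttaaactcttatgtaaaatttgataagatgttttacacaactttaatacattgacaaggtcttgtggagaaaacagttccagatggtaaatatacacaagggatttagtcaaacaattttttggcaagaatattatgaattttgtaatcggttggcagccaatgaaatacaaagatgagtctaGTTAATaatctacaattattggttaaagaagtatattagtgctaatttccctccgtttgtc
GTTAAT was in 6 of 18 promoters of the hepatic and visceral endoderm list (AFP, ALB, APOH, FGA, FGB and FABP1), or 33.3%, against 6.22% of all RefSeq promoters. It was 1 of 8 short motifs searched over 26 gene lists, and it was singled out after the shares were seen. The others were the GATA motif AGATAA, the E-box CACGTG, the TATA box TATAAA, the NKX2-5 motif AAGTGC and 3 longer muscle motifs, of which 2 are MEF2 sites and 1 is a serum response element. The GATA motif was in 9.37% of all promoters, in 4 of 15 of the cardiomyocyte list (26.7%), in 5 of 18 of the hepatic list (27.8%) and in 3 of 10 of the endoderm factors (30%). It was also in 2 of 7 of the posterior second heart field list (28.6%). None of the 20 HOX, 17 ion channel or 14 endothelial promoters held it. The E-box was in 6.49% of all promoters and in 7 of 20 of the HOX list (35%). It was also in 4 of 13 of the cell cycle list (30.8%), and in none of the 17 ion channel or 14 endothelial promoters. These are only some of the 26 lists.

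Library totals were 4726431 to 7438010 counts. CPM are counts scaled to the library total times edgeR's TMM factor. The floor, 3 counts in a library, equals 0.517 CPM on average in AM TRAC and 0.558 in VM TRAC. Values below it are not read. The targeted gene TRAC had 3, 8 and 19 counts in AM TRAC replicates 1, 2 and 3 and 6, 1 and 6 in VM TRAC, so at this depth its RNA is no check of the labels. VM TRAC replicate 3 stood apart: genes of the hepatic list held 3.59% of its counts, against 0.48% and 0.623% in the other VM TRAC libraries and 0.0483% to 0.172% in AM TRAC. Cardiomyocyte genes held 1.33% of its counts, against 3.11% and 3.99% in the other VM TRAC libraries and 1.81% to 2.05% in AM TRAC. Replicate 3 also had the highest hepatic share in the other VM groups. It was 1.38% in LHX2 (0.374% and 0.226% in replicates 1 and 2), 2.51% in ZNF503 (0.495% and 0.403%) and 3.79% in ZNF711 (1.71% and 2.8%). In the AM libraries of each genotype replicate 3 was highest too. Calls that were lost when any 1 of the 6 libraries was left out are named with their list, with the highest adjusted p reached. Of 160 called genes named here or on the lists named, 108 kept their call without any 1 library and 52 lost it.

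In AM TRAC against VM TRAC, 2004 of 17724 genes tested passed an adjusted p of 0.05 in edgeR's quasi-likelihood test, which is 11.3%. Of these, 1096 were higher in AM TRAC (6.18% of genes tested) and 908 were lower (5.12%), and 1217 differed by at least 2-fold. The median log2 fold change of all genes tested was -0.035, the mark against which the gene lists below are read. For the share of a list that was called, the mark is 11.3%. Among lists with calls, the lowest shares were cell cycle (11.8%), fatty acid oxidation (18.8%), endoderm factors (20%), fibroblast (23.1%) and Notch (23.1%). Fitting the replicate numbers as pairs raised the count to 3430 (19.4%), with 1800 higher and 1630 lower, and 2002 of the 2004 genes were among them. Without VM TRAC replicate 3 the count was 1654, and without AM TRAC replicate 2 it was 1187. A fit of the 6 TRAC libraries alone called 995.

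**Figure D1:**
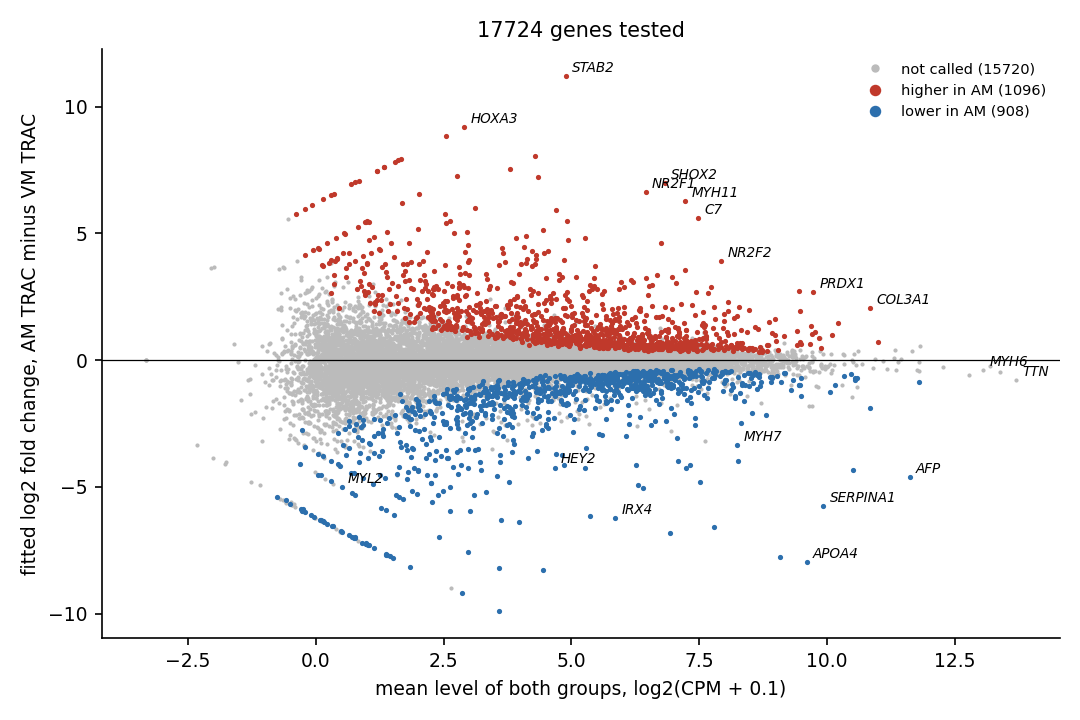
Fitted log2 fold change of AM TRAC over VM TRAC (vertical axis) against the mean level of both groups as log2(CPM + 0.1) (horizontal axis) for the 17724 genes tested, each dot a gene, red and blue for the 1096 called higher and 908 called lower in AM TRAC. NR2F1, SHOX2, MYH11 and C7 stand high and AFP, APOA4 and SERPINA1 low at substantial levels, while MYH6 and TTN, not called, lie just below 0 at the right edge. Fitted values of genes at 0 in 1 group (STAB2, HOXA3) depend on the model's prior count.

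The 5 chamber markers separated the groups in every library. Of all 17724 genes tested, 2543 higher and 2078 lower in AM TRAC likewise had no overlap between the AM and VM libraries. NR2F2 (chr15:96325938-96340263) stood at 409, 453 and 512 CPM in the AM TRAC libraries and at 18.8, 22.6 and 49.0 CPM in VM TRAC. Its mean was 458 ± 51.5 CPM against 30.1 ± 16.4 CPM (SD, n = 3 each), 15.0-fold higher in AM (log2 fold change 3.91, SE 0.305, adjusted p = 1.17e-08). The line carries mCherry at this gene, so the counts may include RNA from a tagged copy. NR2F1 (chr5:93583224-93594615) was at 148, 206 and 167 CPM in AM TRAC and at 0.204, 0 and 4.30 CPM in VM TRAC. The only VM library above the floor was replicate 3, and NR2F1 rose by 6.62 on the log2 scale (SE 0.759, adjusted p = 1.39e-05).

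KCNA5 (chr12:5043989-5046788), the channel of the ultrarapid atrial potassium current, was at 57.1, 82.1 and 50.6 CPM in AM TRAC and at 7.36, 12.7 and 13.7 CPM in VM TRAC, 5.58-fold higher (adjusted p = 1.9e-05). IRX4 (chr5:1877413-1887236) went the other way, with 2.34, 0.777 and 1.45 CPM in AM TRAC and 118, 178 and 46.5 CPM in VM TRAC. Its fitted level was 74.8-fold lower in AM (log2 fold change -6.22, SE 0.629, adjusted p = 1.68e-06), and no library overlapped with the other group. MYL2 (chr12:110910819-110920722) was near the floor, with 1, 0 and 0 counts in AM TRAC and 3, 13 and 30 in VM TRAC. The ratio of its levels, VM over AM, was 48.8, with a 95% counting interval of 8.33 to 1970. MYL2 passed the test (adjusted p = 0.00393), but not without the libraries numbered 3 (adjusted p = 0.0707).

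**Figure D2:**
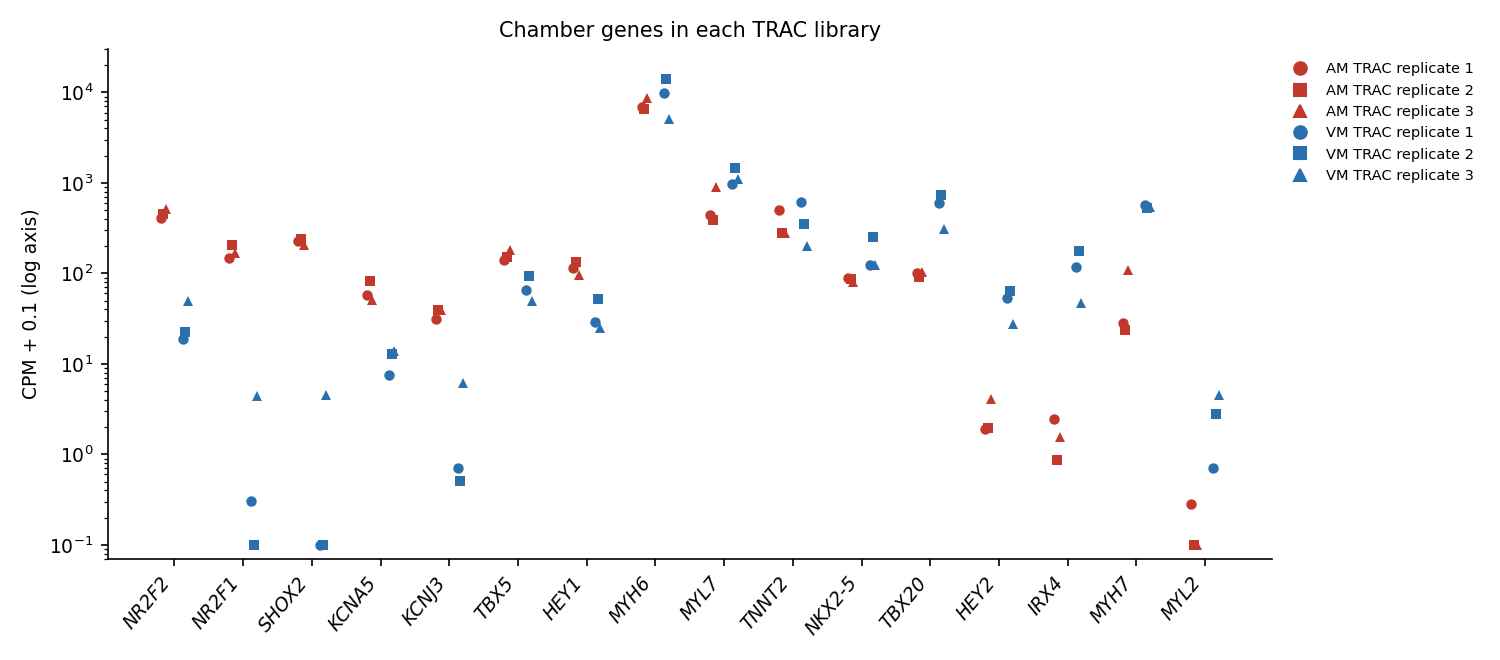
Level in CPM + 0.1 (vertical log axis) of 16 chamber and heart muscle genes in each of the 3 AM TRAC (red) and 3 VM TRAC (blue) libraries, with the symbol giving the replicate number. NR2F2, NR2F1, SHOX2, KCNA5, KCNJ3, TBX5 and HEY1 lie higher in every AM library, MYL7, NKX2-5, TBX20, HEY2, IRX4, MYH7 and MYL2 higher in every VM library, and the MYH6 and TNNT2 points overlap.

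Of 18 genes on the atrial list, 10 rose in AM TRAC, none fell, and the median log2 fold change was 1.24. KCNJ3, a subunit of the acetylcholine-gated potassium channel, was at 31.1, 39.0 and 38.8 CPM in AM TRAC and at 0.613, 0.411 and 6.09 CPM in VM TRAC (log2 fold change 3.80, adjusted p = 6.48e-05). VSNL1, a calcium sensor protein, rose by 3.21 on the log2 scale, from 1.89 ± 1.61 to 18.4 ± 5.34 CPM (SD, n = 3). The T-box factor TBX5 stood at 140, 153 and 180 CPM in AM TRAC against 66.0, 93.3 and 49.9 CPM in VM TRAC (log2 fold change 1.18, adjusted p = 0.000346). HEY1, a Notch target of the atrial chamber, rose by 1.71 (adjusted p = 0.000105), and PAM, the peptide-amidating enzyme of atrial granules, by 1.31 (adjusted p = 0.000153). CACNA1D, an L-type calcium channel of atrial and pacemaker cells, rose by 1.47 (adjusted p = 9e-05).

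The atrial myosin genes did not follow the atrial regulators. MYL7, the atrial regulatory light chain, was at 447, 387 and 910 CPM in AM TRAC and at 971, 1445 and 1098 CPM in VM TRAC, so its lowest VM library was above its highest AM library. Its log2 fold change of -1.01 (SE 0.338) did not pass the test (adjusted p = 0.0578), but passed with the replicate pairs (0.0344) and in DESeq2 (0.0479). Across the alternatives its adjusted p reached 0.0941 with all TRAC libraries and 0.459 with libraries left out. MYH6, the alpha myosin heavy chain, was at 6952, 6561 and 8658 CPM in AM TRAC and at 9746, 14030 and 5067 CPM in VM TRAC, where the groups overlap (log2 fold change -0.38, SE 0.353, adjusted p = 0.58). NPPA, the atrial natriuretic peptide, averaged 5.46 ± 4.71 CPM in AM TRAC and 14.1 ± 11.5 CPM in VM TRAC (SD, n = 3), a difference that did not pass (adjusted p = 0.259). Its adjusted p was 0.00344 to 0.318 across the alternatives with all TRAC libraries and reached 0.797 with libraries left out. SLN, the atrial inhibitor of the calcium pump, rose by 2.42 from 25 counts in VM TRAC, and its call was lost without AM TRAC replicate 2 or 3 or VM TRAC replicate 1 or 2 (adjusted p up to 0.1).

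On the ventricular list, 9 of 16 genes fell in AM TRAC and 2 rose, with a median log2 fold change of -1.05. HEY2 was at 1.80, 1.87 and 3.99 CPM in AM TRAC and at 52.9, 64.5 and 27.3 CPM in VM TRAC (log2 fold change -4.23, SE 0.436, adjusted p = 4.75e-07). MYH7 was at 28.4, 23.8 and 108 CPM in AM TRAC and at 575, 533 and 543 CPM in VM TRAC (log2 fold change -3.36, SE 0.546, adjusted p = 0.000463). The VM libraries agreed closely for MYH7; in AM TRAC replicate 3 was the highest for both HEY2 and MYH7. CKM, the muscle creatine kinase, fell by 2.24 (adjusted p = 0.00468), PRDM16, a chromatin regulator of compact myocardium, by 1.53 (adjusted p = 0.00149), and FHL2, a sarcomere-associated LIM protein, by 1.26 (adjusted p = 0.00177).

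KCNJ2 and IRX5 were the ventricular list's members that rose. KCNJ2, the main channel of the inward rectifier current, was at 38.2, 33.0 and 50.8 CPM in AM TRAC and at 5.52, 8.43 and 8.46 CPM in VM TRAC (log2 fold change 2.43, SE 0.262, adjusted p = 4.75e-07). IRX5, of the same homeobox family as IRX4, had a log2 fold change of 1.08 (adjusted p = 0.02), and IRX3 one of -0.75 (adjusted p = 0.0451). The libraries of both groups overlap for IRX5 and IRX3, unlike for IRX4. Leaving out single libraries ended the calls of IRX3 (adjusted p up to 0.26), IRX5 (up to 0.14) and GJA1, the main ventricular gap junction gene (log2 fold change -1.18, adjusted p up to 0.132).

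**Figure D3:**
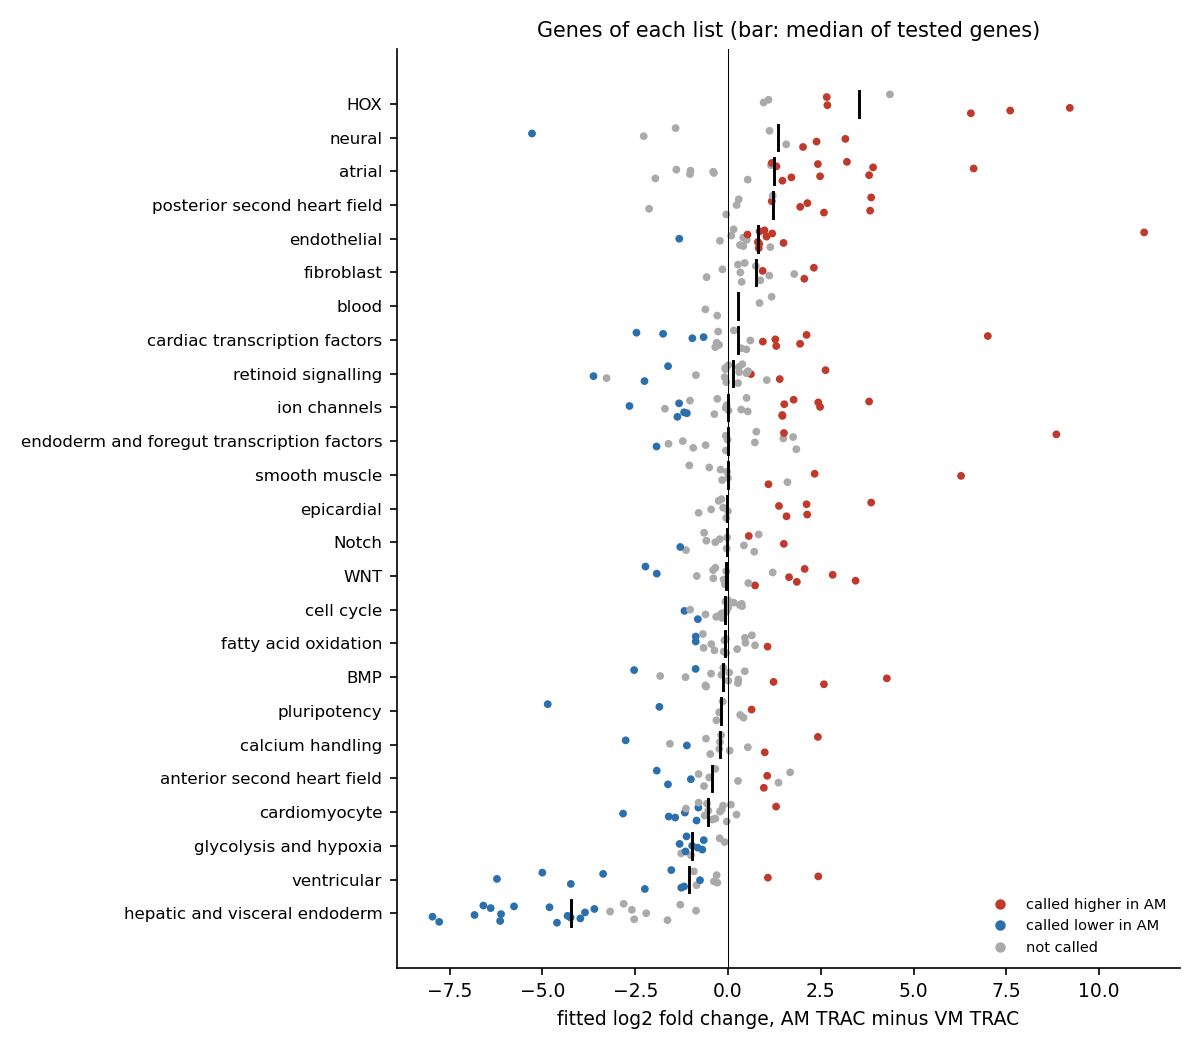
Fitted log2 fold change of AM TRAC over VM TRAC (horizontal axis) for each tested gene of 25 gene lists (vertical axis, ordered by median), with called genes in red (higher in AM) or blue (lower) and the list's median as a black bar. The HOX, neural, atrial and posterior second heart field lists lie at the top and the ventricular and hepatic lists at the bottom, with medians from 3.52 to -4.24.

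On the cardiomyocyte list, 6 of 20 genes fell, 1 rose and 13 did not pass, with a median log2 fold change of -0.55. MYOZ2, a Z-disc protein of slow fibres, was at 5.76, 3.42 and 15.2 CPM in AM TRAC and at 44.8, 78.3 and 49.1 CPM in VM TRAC (log2 fold change -2.83, adjusted p = 0.00155). HSPB7, a muscle chaperone, fell by 1.42 (adjusted p = 0.00254) and NEBL, a Z-disc nebulin-like protein, by 1.16 (adjusted p = 0.00215).

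TNNT2, the cardiac troponin T used to mark these cells, was at 502, 280 and 280 CPM in AM TRAC and at 609, 354 and 202 CPM in VM TRAC, and the groups overlap (log2 fold change -0.13, SE 0.527, adjusted p = 0.92). TTN, the giant spring of the sarcomere, was at 8863, 10540 and 9858 CPM in AM TRAC and at 26970, 17080 and 6583 CPM in VM TRAC (log2 fold change -0.79, adjusted p = 0.196). The VM libraries thus differed among themselves more than the AM libraries did, with VM TRAC replicate 3 lowest for both genes. TNNC1, troponin C, had a log2 fold change of -1.13 that did not pass (adjusted p = 0.063). Across the alternatives with all TRAC libraries the adjusted p was 7.75e-08 to 0.0942 for TNNC1 and 0.000104 to 0.44 for TTN. With libraries left out it reached 0.478 and 0.848. The calls of TNNI1 (log2 fold change -0.80), ACTN2 (-0.85), LDB3 (-1.60) and of TNNI3 (1.30), the mature troponin I and the 1 member that rose, were each lost without single libraries, with adjusted p up to 0.304. Without AM TRAC replicate 1 or 2 or VM TRAC replicate 2 the list had 3 calls, all lower. The summed level of the list was 17380 to 20670 CPM in AM TRAC and 38580, 32090 and 14660 CPM in VM TRAC replicates 1, 2 and 3. The hepatic share of VM TRAC replicate 3 moves with its low muscle level, and its part in these values was not tested.

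Of 18 cardiac transcription factors, 6 rose and 4 fell (median 0.26). SHOX2, a homeobox factor of the sinus node and venous pole, had the widest difference among them, at 229, 242 and 206 CPM in AM TRAC against 0, 0 and 4.45 CPM in VM TRAC (log2 fold change 7, SE 0.648, adjusted p = 8.09e-07). All but VM TRAC replicate 3 were without a single SHOX2 count in VM, where that library held 30. ISL1, of the second heart field and sinus node, was at 140, 121 and 127 CPM in AM TRAC and at 30.9, 26.1 and 43.3 CPM in VM TRAC (log2 fold change 1.94, adjusted p = 1.49e-05). MEIS2 rose by 1.27 (adjusted p = 9.5e-05), GATA6 by 1.30 (adjusted p = 0.000135) and MEF2C by 0.94 (adjusted p = 0.00107).

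TBX20, a T-box factor of chamber myocardium, was at 101, 91.1 and 103 CPM in AM TRAC and at 592, 730 and 306 CPM in VM TRAC (log2 fold change -2.47, SE 0.319, adjusted p = 1.93e-05). TBX2, a repressor of chamber genes in the atrioventricular canal, was at 32.6, 29.5 and 31.9 CPM in AM TRAC and at 89.5, 120 and 107 CPM in VM TRAC (log2 fold change -1.75, adjusted p = 1.06e-05). TBX5 rose, so the T-box genes split by direction. TBX18, of the sinus horn and epicardium, rose by 2.12 from 3.27, 5.55 and 32.5 CPM in VM TRAC. NKX2-5 was at 88.8, 87.2 and 80.8 CPM in AM TRAC and at 123, 254 and 124 CPM in VM TRAC (log2 fold change -0.96, adjusted p = 0.0134). Without single libraries the calls of NKX2-5 (adjusted p up to 0.141), TBX18 (up to 0.144) and SALL4 (log2 fold change -0.66, up to 0.0876) were lost.

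On the retinoid list, 3 of 20 genes rose and 3 fell, with a median of 0.14. Among those that rose, CRABP2, which carries retinoic acid to its receptors, rose by 1.39 (adjusted p = 0.00152), and NRIP1, a nuclear receptor co-repressor, by 0.62 (adjusted p = 0.00804). Those that fell were a receptor and enzymes. RXRG was at 10.8, 10.1 and 14.5 CPM in AM TRAC and at 30.4, 45.2 and 33.0 CPM in VM TRAC (log2 fold change -1.61, adjusted p = 8.29e-05). CYP26C1, which breaks down retinoic acid, was at 1.08, 3.89 and 1.27 CPM in AM TRAC and at 33.5, 9.66 and 36.2 CPM in VM TRAC (log2 fold change -3.62, adjusted p = 0.00198). ALDH1A3, which makes retinoic acid, fell by 2.25 (adjusted p = 0.00597).

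CYP26A1, the enzyme usually induced first by retinoic acid, was near the floor at the time of harvest, with 0, 3 and 0 counts in AM TRAC and 2, 6 and 25 in VM TRAC. Its ratio of VM over AM was 11.7 (95% counting interval 3.66 to 59.4), and it did not pass (adjusted p = 0.0672). RARB, whose promoter is shown above, was at 16.2, 14.0 and 17.1 CPM in AM TRAC and at 12.7, 12.5 and 13.1 CPM in VM TRAC. These values do not overlap, but the log2 fold change of 0.30 (SE 0.282) did not pass (adjusted p = 0.582).

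HOX genes, which give position along the body axis and whose 3′ members respond to retinoic acid, were read mainly in AM TRAC. Of 39 HOX genes, 8 had enough counts to be tested, and 5 of these rose, with HOXA2, HOXA3, HOXB1 and HOXB4 among them. HOXA3 had 65, 86 and 106 counts in the AM TRAC libraries and 0 in all VM TRAC libraries, at least 26.5-fold higher against a floor of 3 counts per library (adjusted p = 1.29e-06). HOXA2 had 17, 43 and 26 counts against 0 (adjusted p = 0.000145). HOXB4 was at 20.2, 14.2 and 11.2 CPM in AM TRAC and at 2.66, 1.44 and 2.97 CPM in VM TRAC (log2 fold change 2.66, adjusted p = 7.91e-05).

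The B cluster was also read in VM TRAC. HOXB2 averaged 24.2 ± 6.72 CPM in AM TRAC and 12.5 ± 6.72 CPM in VM TRAC (SD, n = 3) and did not pass (adjusted p = 0.144). Its adjusted p was 0.014 to 0.182 across the alternatives with all TRAC libraries and reached 0.715 with libraries left out. HOXB3 was at 29.5, 28.5 and 25.8 CPM in AM TRAC against 14.5, 15.6 and 9.35 CPM in VM TRAC, and did not pass (adjusted p = 0.0519), but passed with the replicate pairs (0.000497), in DESeq2 (0.0362) and with no filter (0.00416). HOXB5, with 30 counts against 1, likewise missed the threshold (0.0511) and passed with the pairs (0.0196), in DESeq2 (0.034) and with no filter (0.038). Across the alternatives with all TRAC libraries the adjusted p reached 0.0593 for HOXB3 and 0.0628 for HOXB5. With libraries left out it reached 0.25 and 0.244. The call of HOXB1, with 60 counts against 8, was lost without single libraries (adjusted p up to 0.127).

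By position in the clusters, the 15 genes of paralog groups 1 to 5 held 1800 counts in AM TRAC and 459 in VM TRAC. The 24 genes of groups 6 to 13 held 30 and 19 counts, and 17 of them had none in any of the 6 libraries. Genes with 10 or more counts in AM TRAC were 11 of the 15 and 1 of the 24. The strand setting of the counting was not given, so reads of overlapping antisense RNAs of the HOX clusters cannot be told apart from those of the genes.

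The lists of the second heart field, the progenitors of the outflow tract at the anterior end and of the atria and venous pole at the posterior end, were read separately. Of 11 posterior genes, 6 rose and none fell, with a median of 1.21, and these calls held without any 1 library. TCF21, a factor of the proepicardium and pharyngeal mesoderm, was at 23.4, 35.6 and 13.6 CPM in AM TRAC and at 1.84, 0.411 and 2.52 CPM in VM TRAC (log2 fold change 3.86, adjusted p = 0.000731). OSR1 was at 28.99, 24.1 and 20.2 CPM in AM TRAC and at 5.72, 8.63 and 2.52 CPM in VM TRAC (log2 fold change 2.14, adjusted p = 0.00742). FOXF1 had 22, 22 and 19 counts in AM TRAC and 0, 0 and 4 in VM TRAC (adjusted p = 0.00579). The hedgehog receptor PTCH1 and the effector GLI1, both targets of that pathway, rose by 1.18 and 1.95 (adjusted p = 1.69e-05 and 0.00245).

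Of 12 anterior genes, 3 fell and 2 rose, with a median of -0.42. Without VM TRAC replicate 3, 2 fell and 3 rose, with a median of -0.073, and without any other library 2 fell and 1 rose. HAS2, which makes the hyaluronan of the cardiac jelly, was at 67.2, 54.4 and 50.6 CPM in AM TRAC and at 94.0, 122 and 128 CPM in VM TRAC (log2 fold change -1.001, adjusted p = 0.000634). WNT11, a non-canonical WNT ligand of the outflow tract, was at 3.60, 3.42 and 10.7 CPM in AM TRAC and at 18.2, 23.0 and 25.5 CPM in VM TRAC (log2 fold change -1.92, adjusted p = 0.00234). SEMA3C, a guidance ligand of the outflow tract, rose by 1.06 (adjusted p = 0.0052). The calls of FGF8 (log2 fold change -1.62) and EYA1 (0.96) were lost without most single libraries, with adjusted p up to 0.176 and 0.167.

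Ion channel genes did not move as a group. Of 22 tested, 7 rose and 5 fell and the median was -0.01. Beside KCNA5, KCNJ2 and KCNJ3, KCNIP2, the subunit of the transient outward current, was at 160, 144 and 253 CPM in AM TRAC and at 60.3, 82.0 and 52.5 CPM in VM TRAC (log2 fold change 1.52, adjusted p = 0.00517). Calcium channel genes went in both directions. CACNA1D rose as given above and the T-type gene CACNA1G had a log2 fold change of 1.46 (adjusted p = 0.0317). The ventricular L-type gene CACNA1C was at 107, 97.8 and 119 CPM in AM TRAC and at 374, 350 and 108 CPM in VM TRAC (log2 fold change -1.36, adjusted p = 0.0242), where VM TRAC replicate 3 lay within the AM values. Its beta subunit CACNB2 had a log2 fold change of -1.11 (adjusted p = 0.0261).

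The calls of CACNA1G, CACNA1C, CACNB2, KCNJ11 (log2 fold change -1.32), KCND3 (-2.65) and the leak channel KCNK3 (1.77) were lost without single libraries, with adjusted p from 0.108 to 0.225 at most. Without AM TRAC replicate 2 the list had 5 calls in place of 12, all higher. In calcium handling, 2 of 12 genes rose and 2 fell, and without AM TRAC replicate 2 or 3, 1 rose and 1 fell. ATP2A2, the calcium pump of the sarcoplasmic reticulum, was at 1300, 1394 and 1685 CPM in AM TRAC and at 687, 858 and 660 CPM in VM TRAC (log2 fold change 0.99, adjusted p = 0.000566). JPH2, which ties the reticulum to the cell membrane, was at 102, 91.9 and 125 CPM in AM TRAC and at 219, 288 and 180 CPM in VM TRAC (log2 fold change -1.11, adjusted p = 0.00209). S100A1, a calcium sensor that acts on the pump, had a log2 fold change of -2.76, a call lost without most single libraries (adjusted p up to 0.182).

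The largest falls were of genes for secreted liver and yolk sac proteins. Of 23 genes tested on the hepatic and visceral endoderm list, 15 fell, none rose and the median log2 fold change was -4.24. With the replicate pairs or in DESeq2 19 fell, with no filter all 23 did, and from the 6 TRAC libraries alone 5 did. SERPINA1, alpha-1 antitrypsin, was at 26.3, 21.3 and 57.9 CPM in AM TRAC and at 760, 586 and 4378 CPM in VM TRAC (log2 fold change -5.76, SE 1.042, adjusted p = 0.00142). TF, transferrin, was at 2.16, 2.02 and 9.62 CPM in AM TRAC and at 169, 162 and 981 CPM in VM TRAC (log2 fold change -6.59, adjusted p = 0.000552). In each of these genes VM TRAC replicate 3 was several times above the other VM libraries, and AM TRAC replicate 3 above the other AM libraries.

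The apolipoprotein gene APOA4 was at 0.360, 0.777 and 17.8 CPM in AM TRAC and at 371, 319 and 3945 CPM in VM TRAC (log2 fold change -7.96, SE 1.809, adjusted p = 0.0081). AHSG, fetuin A, was at 0.360, 0.467 and 14.2 CPM in AM TRAC and at 403, 326 and 2496 CPM in VM TRAC (log2 fold change -7.78, adjusted p = 0.0024). ALB, albumin, was at 0.540, 1.71 and 1.09 CPM in AM TRAC and at 29.8, 25.5 and 188 CPM in VM TRAC (log2 fold change -6.14, adjusted p = 0.00278). ITIH2 and APOC3, further secreted liver proteins, fell by 6.39 and 6.83. From the 6 TRAC libraries alone, APOA4, AHSG and APOC3 did not pass (adjusted p = 0.0767, 0.0562 and 0.0607). The complement gene C3, outside the list, fell by 5.04 (adjusted p = 0.000169).

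AFP, alpha-fetoprotein, had the largest drop in level, at 149, 125 and 470 CPM in AM TRAC and 2011, 1824 and 14290 CPM in VM TRAC. Its groups do not overlap, and its log2 fold change was -4.61 (adjusted p = 0.014). Without VM TRAC replicate 3 it was -2.95 and did not pass (adjusted p = 0.0855). APOB, APOA1, APOA2, RBP4, FABP1 and HPX also lost their calls without that library and without AM TRAC replicate 1 or 2, HPX also without AM TRAC replicate 3, with adjusted p up to 0.323. Without VM TRAC replicate 3, 8 genes of the list were called, all lower, with a median of -2.71. TTR, a transport protein of liver and yolk sac, went against the list when that library was left out. It was at 89.9, 53.5 and 211 CPM in AM TRAC and at 54.6, 67.0 and 738 CPM in VM TRAC, with a log2 fold change of -1.29 (adjusted p = 0.55) that became 0.96 (adjusted p = 0.704). FGB, fibrinogen beta, did so too, from -0.86 to 1.36, and neither passed in the main fit or without that library. With no filter both passed as lower, like all 23 tested genes of the list. The part of that library's state in the hepatic values was not tested.

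Of 15 transcription factors of endoderm tested, 2 rose and 1 fell (20% called, beside 11.3% of all genes), with a median of -0.01. Without VM TRAC replicate 3, 5 rose, none fell and the median was 1.48, and without any 1 of the AM TRAC libraries 1 rose and none fell. HNF4A, of liver and gut, was at 21.6, 19.3 and 29.95 CPM in AM TRAC and at 24.9, 17.3 and 121 CPM in VM TRAC, so that AM and VM TRAC replicates 1 and 2 had like levels (log2 fold change -1.22, adjusted p = 0.328). Its adjusted p was 2.21e-06 to 0.397 across the alternatives with all TRAC libraries and reached 0.989 with libraries left out. RFX6, a factor of pancreatic and gut endoderm, went the other way. It had 64, 76 and 61 counts in AM TRAC and 0 in every VM TRAC library, at least 20.5-fold higher (adjusted p = 5.29e-07). The calls of SOX17 (log2 fold change 1.51, adjusted p up to 0.169) and FOXA3 (-1.93, up to 0.382) were lost without single libraries.

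Of 19 endothelial genes tested, 10 rose and 1 fell, with a median of 0.81. STAB2, a scavenger receptor of sinusoidal endothelium, had 278, 560 and 223 counts in AM TRAC and 0 in all VM TRAC libraries. At a mean of 59.2 ± 24.6 CPM (SD, n = 3) it was at least 106-fold higher (adjusted p = 0.00244). Its relative STAB1 was at 59.6, 86.0 and 56.3 CPM in AM TRAC and at 36.0, 22.0 and 30.4 CPM in VM TRAC (log2 fold change 1.19, adjusted p = 0.00975). ERG, a factor that maintains endothelial identity, rose by 1.496 (adjusted p = 0.00174), the receptor gene TIE1 by 0.98 (adjusted p = 0.000669) and ENG, a TGF-beta co-receptor, by 0.84 (adjusted p = 0.00142). NPR3, of endocardium, rose by 1.04 (adjusted p = 0.00138).

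NFATC1, a factor of endocardial cushions, was the member that fell, at 18.4, 13.4 and 13.8 CPM in AM TRAC and at 40.9, 39.0 and 33.2 CPM in VM TRAC (log2 fold change -1.31, adjusted p = 0.000332). PECAM1, the usual pan-endothelial marker, was at 53.8, 65.5 and 49.4 CPM in AM TRAC and at 45.0, 44.0 and 69.5 CPM in VM TRAC, and the groups overlap (log2 fold change 0.09, SE 0.229, adjusted p = 0.872). The list's summed level was 1096 to 1445 CPM in AM TRAC and 753 to 895 CPM in VM TRAC. Calls of CDH5, TEK, ESAM, PLVAP and STAB1 were lost without single libraries, with adjusted p from 0.0751 to 0.189 at most. Without AM TRAC replicate 2 or VM TRAC replicate 2, 6 genes of the list were called, 5 of them higher.

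Matrix and mesenchymal genes were among the largest gains in level. COL3A1, a fibrillar collagen, was at 2530, 2989 and 3357 CPM in AM TRAC and at 497, 348 and 1288 CPM in VM TRAC (log2 fold change 2.06, SE 0.397, adjusted p = 0.00152). PDGFRA, the receptor of fibroblast and cardiac progenitors, was at 428, 485 and 419 CPM in AM TRAC and at 91.4, 103 and 73.3 CPM in VM TRAC (log2 fold change 2.31, adjusted p = 5.66e-09). COL6A1 and COL6A2 rose by 1.03 and 1.36, and the matrix-binding protein FBLN2 by 0.93 (adjusted p = 0.000916). On the fibroblast list as a whole 3 of 13 genes rose and none fell, with a median of 0.75, and with the replicate pairs 5 rose and 1 fell. Without VM TRAC replicate 3, 7 rose, none fell and the median was 1.06, and without VM TRAC replicate 2 the median was 0.38. COL1A1, the main fibroblast collagen, overlapped between the groups, at 1759 ± 236 and 1362 ± 875 CPM (SD, n = 3, adjusted p = 0.549). DCN, decorin, was at 8.82, 11.5 and 16.2 CPM in AM TRAC and at 1.43, 0.616 and 8.02 CPM in VM TRAC, and did not pass (adjusted p = 0.0629), but passed with the pairs (0.00948), in DESeq2 (0.0259) and with no filter (0.000728). Across the alternatives its adjusted p reached 0.19 with all TRAC libraries and 0.268 with libraries left out.

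Of 10 smooth muscle genes, 3 rose. MYH11, the smooth muscle myosin heavy chain, was at 244, 312 and 332 CPM in AM TRAC and at 0.613, 3.08 and 6.98 CPM in VM TRAC (log2 fold change 6.28, SE 0.563, adjusted p = 5.29e-07). The kinase gene MYLK rose by 2.33 (adjusted p = 0.00103) and ACTA2 by 1.09 (adjusted p = 0.00155). The other 7 did not pass, and the median was -0.01, so MYH11 stood far from the rest of its list. On the epicardial list 5 of 12 genes rose, BNC1 by 1.58 (adjusted p = 0.000504) and BNC2 by 2.13 (adjusted p = 0.00116), with TCF21, TBX18 and SEMA3D. The median was -0.02, but 1.17 without VM TRAC replicate 3, with 5 genes higher in both cases. Without AM TRAC replicate 1 or 2 or VM TRAC replicate 1 or 2, 3 rose. WT1, the defining epicardial factor, had 1, 4 and 14 counts in AM TRAC and 3, 4 and 15 in VM TRAC and did not pass (adjusted p = 0.942). The call of SEMA3D (log2 fold change 1.37) was lost without single libraries (adjusted p up to 0.109).

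PTPRC, of white blood cells, had 1 count over all 6 libraries. NANOG had 0 to 6 counts per library. On the pluripotency list POU5F1 had 28 counts in AM TRAC and 96 in VM TRAC, and its call and that of LIN28B (log2 fold change 0.64) were lost without single libraries (adjusted p up to 0.164). Of that list's 8 tested genes 1 rose and 2 fell, and without VM TRAC replicate 2 only 1 was called. Of 8 neural genes tested, 3 rose (DCX by 2.02, MAP2 by 2.39 and PAX6 by 3.16), and SOX3, a neural and placodal factor, fell with 3 counts in AM TRAC against 116 in VM TRAC (adjusted p = 0.000815). ELAVL3, a defining neuronal gene, had no count in AM TRAC and 12 in VM TRAC. TDGF1, a NODAL co-receptor that stem cells and outflow tract progenitors express, had 5 counts against 140 (adjusted p = 0.00145). Of 17 cell cycle genes 2 fell, near the 11.3% of all genes called. These were CDKN1A, a cell cycle inhibitor (log2 fold change -1.17, adjusted p = 0.00193), and AURKA, whose call was lost without single libraries (adjusted p up to 0.195). The proliferation marker MKI67 did not pass (128 ± 24.6 against 99.1 ± 16.2 CPM, SD, n = 3, adjusted p = 0.267).

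Genes of BMP signalling, which patterns cardiac mesoderm, included both ligands and inhibitors. BMP4 was at 140, 132 and 192 CPM in AM TRAC and at 14.3, 23.6 and 38.6 CPM in VM TRAC (log2 fold change 2.58, SE 0.353, adjusted p = 4.64e-05). BMP7 rose by 1.23 (adjusted p = 3.13e-05), and CHRDL1, a secreted BMP antagonist, by 4.28 (adjusted p = 6.51e-05). NOG, the antagonist noggin, fell by 2.53 (adjusted p = 0.00159), and SMAD6, an inhibitor inside the cell, by 0.87 (adjusted p = 8.03e-05). In all, 3 of 17 BMP genes rose and 2 fell, calls that held without any 1 library.

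On the WNT list, secreted inhibitors were among the genes that rose. SFRP5, of the sinus venosus, was at 62.7, 81.3 and 95.1 CPM in AM TRAC and at 6.74, 5.14 and 20.9 CPM in VM TRAC (log2 fold change 2.82, adjusted p = 0.00174). FRZB rose by 1.85 (adjusted p = 0.000106) and SFRP1 by 1.64 (adjusted p = 0.00292). The ligand WNT5B was at 3.42, 4.82 and 7.08 CPM in AM TRAC and at 22.3, 27.7 and 21.8 CPM in VM TRAC (log2 fold change -2.22, adjusted p = 9.14e-05). Over the list 6 of 17 genes rose and 2 fell (3 and 2 without VM TRAC replicate 1), and the calls of WNT4, AXIN2 and FZD10 were lost without single libraries (adjusted p up to 0.182). On the Notch list 2 of 13 rose and 1 fell, or 3 and 2 with the replicate pairs, and without AM TRAC replicate 1 only 1 rose. The ligand JAG1 was at 715, 701 and 664 CPM in AM TRAC and at 240, 207 and 286 CPM in VM TRAC (log2 fold change 1.504, SE 0.158, adjusted p = 3.38e-07). NOTCH3 (log2 fold change 0.56) and HES4 (-1.29) lost their calls without single libraries (adjusted p up to 0.244).

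Genes of glycolysis and the hypoxia response were lower in AM TRAC: 7 of 11 fell, none rose and the median was -0.96. VEGFA, the endothelial growth factor induced by low oxygen, was at 295, 234 and 217 CPM in AM TRAC and at 529, 489 and 599 CPM in VM TRAC (log2 fold change -1.12, SE 0.141, adjusted p = 5.04e-06). PDK1, which keeps pyruvate out of mitochondria, fell by 1.30 (adjusted p = 0.000113), BNIP3 by 1.15 (adjusted p = 0.000627), LDHA by 0.96 (adjusted p = 0.00219) and HK2 by 0.82 (adjusted p = 0.00057). PGK1 and ENO1 lost their calls without single libraries (adjusted p up to 0.129). Of 16 fatty acid oxidation genes 1 rose and 2 fell (18.8% called, beside 11.3% of all genes). CPT1A, which imports fatty acids into mitochondria, rose by 1.07 (adjusted p = 0.00343), while PPARA and FABP3 lost their calls without single libraries (adjusted p up to 0.196). The mitochondrial genes MT-ND1 and MT-ND2 had log2 fold changes of -0.86 and -0.79, and near-identical nuclear copies make them uncertain. Their calls were lost without AM TRAC replicate 1 (MT-ND1, adjusted p = 0.0595) or without AM TRAC replicate 1 or VM TRAC replicate 2 (MT-ND2, adjusted p up to 0.118).

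Several of the largest differences lay outside the lists. LRRTM3, a synaptic adhesion protein, had 217, 280 and 184 counts in AM TRAC and 0, 1 and 1 in VM TRAC (adjusted p = 7.82e-11), a ratio of 321 with a 95% counting interval of 88.5 to 2660. CDH12, a cadherin, had 203, 306 and 199 counts against 0, 1 and 3 (adjusted p = 5.1e-08). C7, a complement component, was at 352, 376 and 324 CPM in AM TRAC and at 4.29, 8.01 and 8.76 CPM in VM TRAC (log2 fold change 5.62, SE 0.312, adjusted p = 2.58e-11). For these the 3 libraries of each group agreed closely. DACH2, a transcriptional cofactor, rose by 5.94 (adjusted p = 2.1e-08).

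By level, PRDX1, an antioxidant peroxiredoxin, was at 1348, 1590 and 1469 CPM in AM TRAC and at 144, 245 and 297 CPM in VM TRAC (log2 fold change 2.68, SE 0.251, adjusted p = 6.11e-08). SLIT2, a secreted guidance ligand, was at 1186, 1393 and 1070 CPM in AM TRAC and at 208, 136 and 201 CPM in VM TRAC (log2 fold change 2.74, adjusted p = 7.03e-10). PPP1R12B, a regulatory subunit of myosin phosphatase, rose by 1.45, the IGF binding protein IGFBP5 by 1.96 and the growth factor MDK by 1.11. In the other direction, FBN2, the fetal fibrillin, was at 624, 639 and 634 CPM in AM TRAC and at 1729, 1627 and 1118 CPM in VM TRAC (log2 fold change -1.24, adjusted p = 6.29e-06). FLNC, the muscle filamin, fell by 0.72 (adjusted p = 0.000404). The non-coding RNA LINC01405 had 1, 1 and 2 counts in AM TRAC and 84, 92 and 74 in VM TRAC (adjusted p = 1.87e-08). SCD, a fatty acid desaturase (log2 fold change -1.87), and FLNA (0.72) lost their calls without single libraries, with adjusted p up to 0.191 and 0.0976.

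The same comparison could be made in LHX2, ZNF503 and ZNF711 targeted cells, which share no library with the TRAC cells. All these comparisons came from the same fit, with a shared estimate of spread. Whether same-numbered replicates share effects across genotypes was not tested. Of the 2004 genes called in TRAC, 98.2% had the same direction in LHX2, 99.2% in ZNF503 and 95.5% in ZNF711 cells, beside 69.5%, 74.2% and 71.7% of all genes tested. Genes called in TRAC and in LHX2 cells in the same direction were 1042, which is 52% of the TRAC calls and 68.7% of the 1517 calls in LHX2. For ZNF503 they were 1174 (58.6% of the TRAC calls and 74.7% of 1571), and for ZNF711 they were 1127 (56.2% and 48.1% of 2344). In all 4 genotypes 607 genes were called in TRAC's direction, and 391 of the 2004 were called in none of the other 3.

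The TRAC difference was also tested against the mean difference of the other 3 genotypes. No gene passed in edgeR's test (0 of 17724, lowest adjusted p = 1; 441 genes at an unadjusted p under 0.05), none in DESeq2 (530 unadjusted, lowest adjusted p = 0.511) and none with the replicate pairs (911 unadjusted, lowest adjusted p = 0.769). For NR2F2 the log2 fold change of 3.91 in TRAC compares with 3.70, 3.72 and 2.45 in LHX2, ZNF503 and ZNF711 cells, and for IRX4 the -6.22 in TRAC compares with -7.13, -6.45 and -4.11. MYH11 had 6.28 in TRAC and 7.77, 7.60 and 5.87 in the others, and AFP had -4.61 and -3.36, -4.64 and -4.20. LINC01405 fell by 5.94 in TRAC and by 3.42, 3.27 and 3.38 in the others, a difference of -2.59 (SE 0.63) that did not pass after adjustment (adjusted p = 1).

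**Figure D4:**
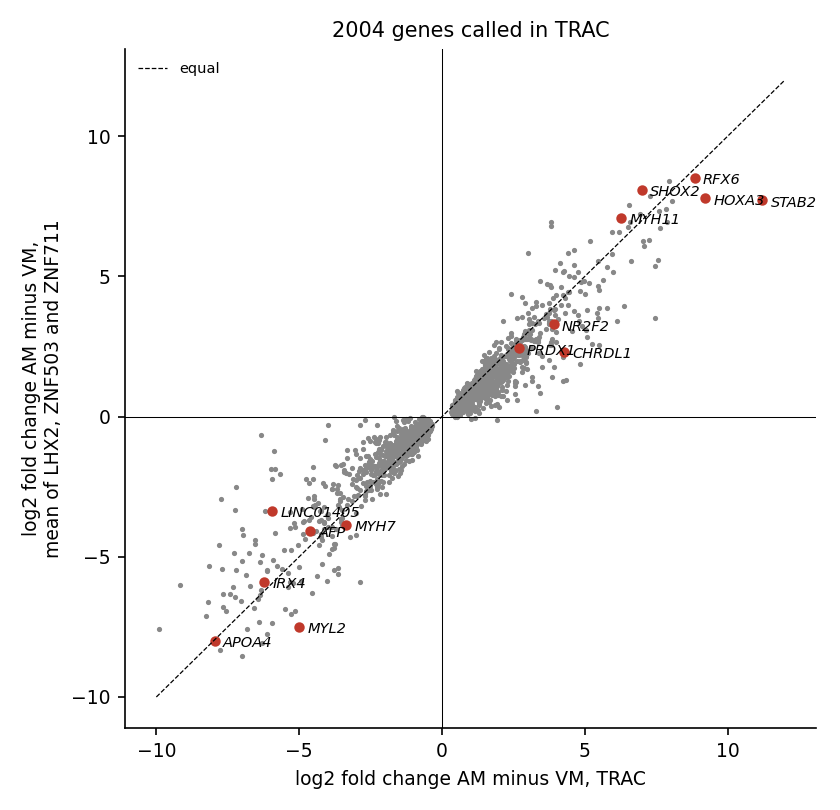
Log2 fold change of AM over VM in TRAC cells (horizontal axis) against the mean of the same difference in LHX2, ZNF503 and ZNF711 targeted cells (vertical axis) for the 2004 genes called in TRAC, with 14 named genes in red and equal values on the dashed line. Nearly all points lie in the upper right or lower left of the plot, with MYL2, LINC01405, CHRDL1 and STAB2 among the named genes off the line.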

How the data were processed

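Gene counts of 24 libraries were used as deposited by the authors: 62757 genes with raw counts, of which 17724 passed edgeR's filterByExpr. Reads were aligned with STAR to GRCh38, per the submitters' processing notes. The counting tool, annotation and strand setting are not given in the sources used here, and the labels name both polyA RNA and a ribosomal depletion kit. Group means of all 8 groups were fitted with edgeR 4.0.16 (TMM scaling, robust quasi-likelihood test, Benjamini-Hochberg adjustment, threshold 0.05; R 4.3.3), after a check on simulated data. CPM are TMM-scaled. The biological coefficient of variation was 25%, with 16 residual degrees of freedom. DESeq2 1.42.0, other scalings and filters, the 6 libraries alone, and leaving out libraries were alternatives.

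Named genes were the 5 chamber markers; among called genes whose libraries do not overlap and whose higher group never has under 50 counts, the 10 largest in each direction by fold change and by difference of mean CPM; and called list members in order of adjusted p, with members whose missing the call is stated. The members and lists were chosen with earlier results of these data known. Deviations of same-numbered AM and VM libraries from their group means correlated at 0.377, 0.152 and 0.263 over 11423 genes, so the numbers were taken to pair the samples; that pairing comes from the data, since the labels give only the number. Floors and intervals cover counting error only. A few list members are not reported here.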

Additional observations from a re-analysis of the deposited data

How the results depend on the processing

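The 2004 genes called became 3430 with the replicate block and 995 from the 6 TRAC libraries alone. Those 6 libraries with the replicate block gave 1522, and the cause of these shifts was not tested. Leaving out 1 library or 1 replicate number gave 1037 to 1765, from fewer samples. Other scalings, filters and DESeq2 stayed within 1.5 times (1853 to 2517). The test of the TRAC difference against the other 3 genotypes called 10 genes with no filter, in place of 0; the cause was not tested. Of 160 called genes in the text or on its lists, 86 kept their call under every alternative, 74 lost it under at least 1, and none reversed. With the replicate block no called gene of these was lost and 5 more passed. With no filter 6 were lost and 12 more passed. Genes that reversed had not been called. Leaving out libraries gave log2 fold changes of -0.812 to 0.079 for MYH6, -0.467 to 0.347 for TNNT2, -0.149 to 0.429 for PECAM1, -2 to 0.959 for TTR, -1.544 to 0.61 for WT1, -1.421 to 1.358 for FGB and -1.634 to 0.164 for HNF4A. FGB was also 0.004 in the 6 TRAC libraries with the replicate block. TTR, FGB and HNF4A were positive without VM TRAC replicate 3. At 4726431 to 7438010 counts per library, genes near 3 counts could not be compared.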
